A study of Mus musculus with 6 samples.

Results

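The genes described here are 10 targets of the tumor suppressor p53: Cdkn1a, Ccng1, Zmat3, Mdm2, Trp53inp1, Bax, Bbc3, Eda2r, Sesn2 and Phlda3. They were chosen by name and matched by symbol to the Ensembl gene IDs of the count files, and all 10 were found among the 54232 genes listed. All 10 also passed the filter on low counts, which kept 15763 genes. RNA came from the esophagus of mice that drank the carcinogen 4-nitroquinoline 1-oxide (4-NQO), which forms bulky DNA adducts and gives squamous tumors of the esophagus. Dosing began at 8 weeks of age with 100 µg/ml in the drinking water for 16 weeks, and plain water followed for 12 weeks. In the last 2.5 weeks the mice received intraperitoneal injections of 10 µg of antibody at 2 injections a week. The treated group was given DTA-1, which activates the T cell co-receptor GITR, and the control group an isotype antibody. After peeling and enrichment for invading cells, the tissue of each group gave 3 libraries of polyA RNA, numbered as replicates 1 to 3. Wherever 3 values are listed for a group below, they follow these numbers. The sources used here name no strain, genotype or sex. Whether the 3 libraries of a group stem from different mice is not stated, and the spread behind each p-value may therefore be technical in part. All 6 libraries come from exposed mice, so the values show how p53 targets stood in carcinogen-treated tissue with either antibody, and no comparison with unexposed tissue was made.

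p53 is a transcription factor that is kept scarce by the ubiquitin ligase Mdm2 and stabilized when kinases such as Atm and Chek2 signal DNA damage. It binds a response element of a pair of half-sites and switches on genes that stop the cell cycle, trigger apoptosis, limit growth signaling or feed back on p53 itself. In squamous epithelium its relative p63 binds similar elements, and several of the target genes, Cdkn1a among them, are also controlled by other factors during differentiation and stress.

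The sequences below are shown because a response element is the feature that makes a gene a direct p53 target. RefSeq promoter windows on GRCm38.p6 (250 bases before to 50 after a transcription start) were found for 8 of the 10 genes, and Trp53inp1 and Zmat3 had none. Each window was searched for the 20-base p53 consensus, a pair of 10-base half-sites with no spacer, which reads the same on both strands. Capitals mark the letters that match the consensus and lower case the letters that do not.
Cdkn1a (chr17:29090928-29090947, plus strand): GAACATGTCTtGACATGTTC
Ccng1 (chr11:40755462-40755481, minus strand): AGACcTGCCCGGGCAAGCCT
Bbc3 (chr7:16309486-16309505, plus strand): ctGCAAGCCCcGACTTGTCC
Bax (chr7:45467090-45467109, minus strand): AGcaTAtCCCAGGCAAGCTT
The Cdkn1a and Ccng1 elements each matched 19 of 20 letters. A match with at most 1 letter off was found in 0.107% of the 27025 genes that have a window, and 2 of the 8 p53 targets had one. At most 2 letters off, the main setting of the search, was reached by 0.94% of those genes and by the same 2 targets. The Cdkn1a element lies 51 to 32 bases before the more upstream of its RefSeq starts and ends 2822 bases before the other, and the Ccng1 element lies 195 to 176 bases before its start. Bbc3 and Bax matched 17 of 20 letters, and at most 3 letters off was reached by 7.2% of all genes with a window. The best matches of the other 4 genes with a window (Mdm2, Sesn2, Phlda3 and Eda2r) had 5 or 6 letters off, which says only that these letters are not in these windows. These matches are a description of sequence, and binding was not measured.

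The libraries held 23147873 to 29065162 counts, at which 3 reads correspond to 0.108 to 0.141 CPM (counts relative to the TMM-scaled size of the library), and such limits cover counting error only. No 2 libraries of a group agreed within sampling noise, as the median chi-square over genes was at least 5.49, where noise alone gives 0.455. Striated muscle markers took 6.62% to 11.6% of counts in isotype and 12.3% to 16.5% in DTA-1 libraries, and squamous markers took 4.46% to 5.64% and 0.96% to 3.41%. In bulk tissue, fewer cells of a type and less RNA per cell cannot be told apart. Isotype replicate 3 held stomach transcripts (summed marker level 2447 CPM, against 0.856 to 18.6 elsewhere), and DTA-1 replicate 2 held red cell transcripts (2899 CPM, against 85.1 to 172 elsewhere). DTA-1 replicate 3 had the highest adipocyte sum (936 CPM, against 114 to 342 elsewhere).

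The 10 p53 targets were split in direction, and none passed the test. Comparing DTA-1 with isotype, 5 of the 10 genes had positive and 5 negative fold changes, where 47.1% of all genes tested were positive and 52.9% negative. Their median was -0.10 on the log2 scale, against -0.031 over all genes tested. In edgeR's quasi-likelihood test 0 of the 10 passed an adjusted p of 0.05, and 0 of all 15763 genes did (0% of those tested). At an unadjusted p under 0.05 edgeR counted 2 of the 10, Sesn2 on the lower side and Ccng1 on the higher side, where 7.52% and 5.21% of all genes were counted in those directions. DESeq2 called 0 of the 10 and 180 of 16084 genes (1.12%). Limma-voom called 0 of the 10 and 0 genes in all, with 2193 of all genes at an unadjusted p under 0.05 against 2006 in edgeR. The same 2 p53 targets were those whose groups did not overlap: each DTA-1 library lay above each isotype library for Ccng1, as for 8.6% of all genes, and below for Sesn2, as for 9.38%.

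**Figure D1:**
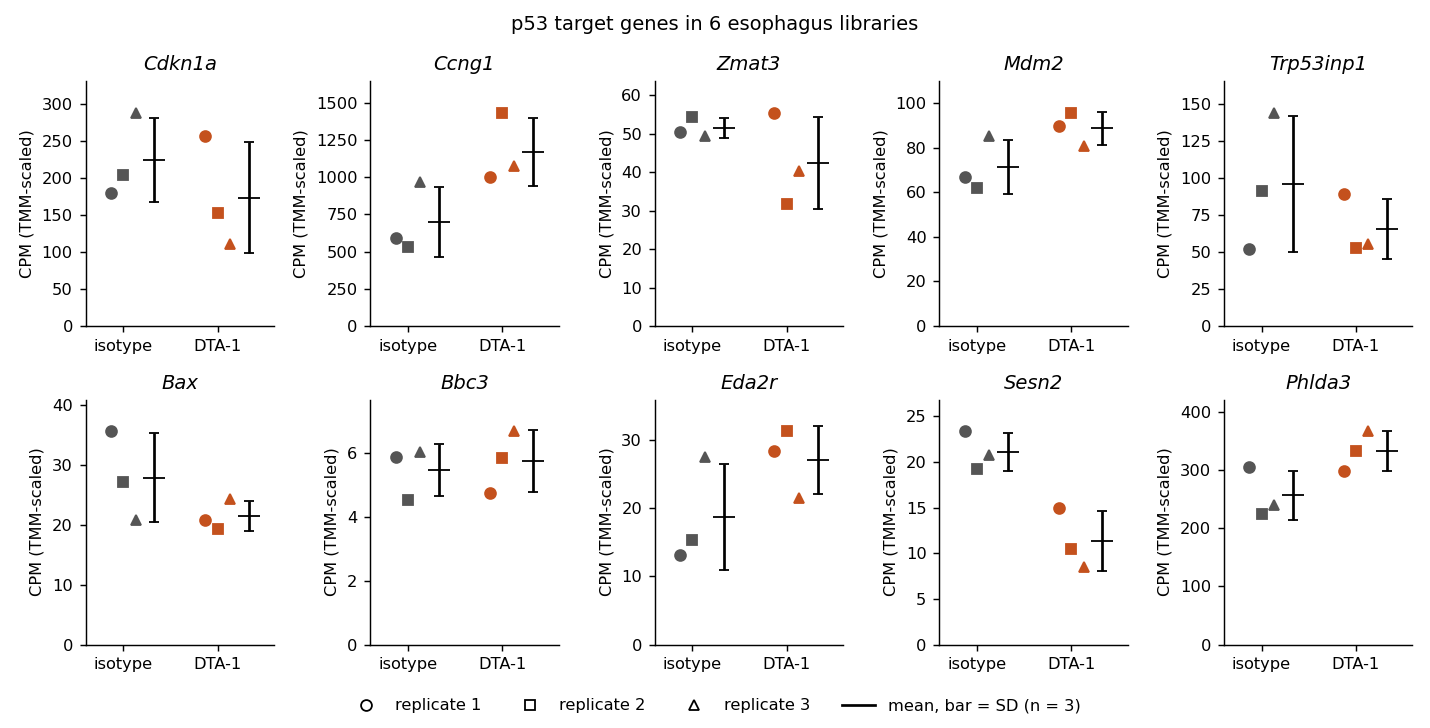
TMM-scaled CPM of the 10 p53 target genes in each library, with the vertical axis starting at 0; points are libraries, with circle, square and triangle for replicates 1, 2 and 3, and the bar is the mean with its SD. Sesn2 is lower in all 3 DTA-1 libraries and Ccng1 higher, while the other 8 genes overlap between the groups.

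Per length, the levels of the p53 targets covered a wide range. On a scale of CPM per kilobase of exon, Ccng1 had the highest mean over the 6 libraries (266, range 152 to 408), followed by Phlda3 (189, range 144 to 235), and these ranges overlapped. Cdkn1a came next with 55.9 (31.1 to 81.0), separate from both neighbors in the order. Mdm2 (15.8), Bax (15.6) and Trp53inp1 (12.5) formed a middle group whose ranges overlapped. Sesn2 (4.66), Zmat3 (4.10), Eda2r (3.88) and Bbc3 (2.64) were the lowest, again with overlapping neighbors. Exon lengths are the union over annotated transcripts, so the order depends on the transcripts annotated for each gene, and transcript usage was not measured. In summed CPM over the 10 genes, Ccng1 alone made up 43.2% to 52.4% in isotype libraries and 53.9% to 66.1% in DTA-1 libraries. Because of that weight the summed CPM of the 10 genes rested largely on Ccng1, being 1325, 1236 and 1850 with isotype and 1861, 2165 and 1789 with DTA-1. Without Ccng1 the sums were 732, 702 and 880 against 858, 734 and 714 CPM, and the groups overlapped.

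Among the genes of cell cycle arrest, Cdkn1a encodes p21, the inhibitor of cyclin-dependent kinases through which p53 halts division (chr17:29090976-29100727, GRCm38, ENSMUSG00000023067). Isotype libraries gave 180, 203 and 288 CPM, and DTA-1 libraries 257, 153 and 110 CPM. The groups overlapped, with isotype replicate 3 and DTA-1 replicate 1 highest and DTA-1 replicate 3 lowest. DTA-1 over isotype gave a log2 fold change of -0.37 ± 0.34 (SE), with an edgeR adjusted p of 0.621. Part of the Cdkn1a exons, 7.68% of their bases, is overlapped by an opposite-strand gene model. Without DTA-1 replicate 1 it was -0.76 ± 0.28, and without isotype replicate 3 it was -0.12 ± 0.36, neither past the threshold in edgeR (adjusted p = 0.173 and 0.876).

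Ccng1 encodes cyclin G1, an atypical cyclin that brings the phosphatase PP2A to Mdm2 and so belongs to the p53 feedback loop (chr11:40748552-40755311, ENSMUSG00000020326). Isotype libraries gave 593, 534 and 970 CPM, and DTA-1 libraries 1003, 1431 and 1075 CPM. Isotype replicate 3 was close below DTA-1 replicate 1, and the other isotype libraries lay well under both. The means were 698.9 ± 236 CPM with isotype and 1170 ± 229 with DTA-1 (SD, n = 3 each). The log2 fold change was 0.74 ± 0.31 (SE), with an edgeR p of 0.0472 and an adjusted p of 0.391, so it did not pass. DESeq2 gave an adjusted p of 0.218. Without isotype replicate 3 Ccng1 did not pass in edgeR (1.08 ± 0.25, adjusted p = 0.224) and passed in DESeq2 (1.09 ± 0.27, adjusted p = 0.00521), where 6.1% of all genes passed. This removed the isotype library nearest the DTA-1 group and gave the largest edgeR value among the fits lacking 1 library. The smallest, 0.57 ± 0.35, came when DTA-1 replicate 2 was dropped (adjusted p = 0.859 in edgeR and 0.873 in DESeq2). Ccng1 passed in no other fit lacking 1 library, with either program.

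The order of the 6 libraries by Ccng1 was the same as their order by the share of striated muscle transcripts. That share was 8.17%, 6.62% and 11.6% of counts with isotype and 12.3%, 16.5% and 13.3% with DTA-1. All 20 muscle markers passed the filter on low counts, and 19 of them had positive fold changes. No other p53 target had that library order, and none had the order of the squamous share. With the muscle score (mean log2 CPM of the markers) as a covariate in edgeR, the Ccng1 fold change was 0.018 ± 0.24 (SE). With the squamous score in its place, the Ccng1 fold change was 0.31 ± 0.39. The values under the muscle and squamous scores were not compared by a test, and the cause of the drop was not tested. With the muscle score 4 other targets changed sign, Mdm2, Bbc3 and Eda2r to negative and Bax to positive.

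**Figure D2:**
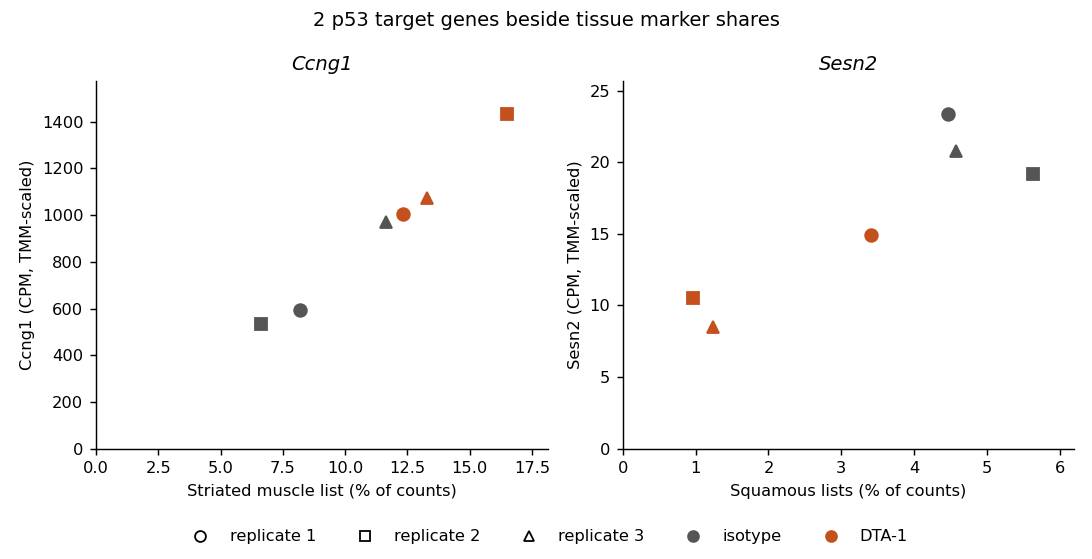
Left, Ccng1 in TMM-scaled CPM against the striated muscle marker share in percent of counts; right, Sesn2 in CPM against the summed share of the basal and differentiated squamous markers; each point is a library and color gives the antibody. Ccng1 is 534 CPM at a muscle share of 6.62% and 1431 CPM at 16.5%, and the DTA-1 libraries with a squamous share of 0.96% and 1.24% have the lowest Sesn2 levels.

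Zmat3, also called Wig-1, encodes a zinc finger protein that binds RNA and affects transcript stability and splicing (chr3:32334792-32366014, ENSMUSG00000027663). Isotype libraries were close together, at 50.5, 54.3 and 49.3 CPM, and DTA-1 libraries gave 55.4, 31.7 and 40.3 CPM. DTA-1 replicate 1 was the highest of the 6 libraries, while DTA-1 replicates 2 and 3 were below all isotype libraries. In edgeR it had a log2 fold change of -0.28 ± 0.22 (SE, adjusted p = 0.567). It was -0.51 ± 0.16 when DTA-1 replicate 1 was left out and -0.10 ± 0.21 when DTA-1 replicate 2 was (edgeR adjusted p = 0.132 and 0.939).

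The feedback gene Mdm2 encodes the ligase that marks p53 for degradation (chr10:117688875-117710758, ENSMUSG00000020184). Isotype libraries gave 66.9, 62.1 and 85.2 CPM, and DTA-1 libraries 89.9, 95.7 and 80.8 CPM. Isotype replicate 3 lay within the DTA-1 range, and isotype replicates 1 and 2 were below all DTA-1 libraries. For Mdm2 the log2 fold change was 0.32 ± 0.17 (SE, edgeR adjusted p = 0.433). From the lowest to the highest of the 6 libraries Mdm2 spanned 1.54-fold, where the spans of the 10 genes ran from 1.47-fold for Bbc3 to 2.77-fold for Trp53inp1.

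Trp53inp1 encodes a nuclear stress protein that favors p53 phosphorylation and cell death (chr4:11156431-11174379, ENSMUSG00000028211). Isotype libraries gave 52.0, 91.3 and 143.8 CPM, and DTA-1 libraries 89.1, 52.9 and 55.2 CPM. The isotype libraries thus held both the lowest and the highest value, a 2.77-fold spread inside 1 group, and the DTA-1 libraries lay between them. Its log2 fold change was -0.54 ± 0.39 (SE, edgeR adjusted p = 0.531). That value was -0.83 ± 0.31 without isotype replicate 1 and -0.10 ± 0.34 without isotype replicate 3. With both isotype replicate 3 and DTA-1 replicate 2 left out it was 0.031 ± 0.38.

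Of the apoptosis genes, Bax encodes the pore-forming BCL-2 family member that opens the mitochondrial outer membrane (chr7:45461697-45466898, ENSMUSG00000003873). Isotype libraries gave 35.6, 27.1 and 20.8 CPM, and DTA-1 libraries 20.7, 19.4 and 24.3 CPM. Isotype replicates 1 and 2 were above all DTA-1 libraries, and isotype replicate 3 was within the DTA-1 range. For Bax the log2 fold change was -0.38 ± 0.23 (SE, edgeR adjusted p = 0.475), -0.15 ± 0.22 without isotype replicate 1 and -0.52 ± 0.21 without isotype replicate 3. A same-strand gene model, Gm45808, overlaps 12.2% of Bax exon bases and is listed at 0 in all 6 libraries, so reads shared with it could be missing from the Bax counts.

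Bbc3 encodes PUMA, a BH3-only protein that frees Bax and Bak from their inhibitors (chr7:16308393-16318205, ENSMUSG00000002083). It was the scarcest of the 10 per kilobase, with 109 to 167 reads per library. Isotype libraries gave 5.86, 4.53 and 6.02 CPM, and DTA-1 libraries 4.74, 5.84 and 6.67 CPM. The groups overlapped throughout, and the log2 fold change was 0.072 ± 0.27 (SE, edgeR adjusted p = 0.916). Its sign turned with small changes, being -0.079 when libraries were scaled by their totals alone, -0.029 when isotype replicate 2 was left out and -0.047 when DTA-1 replicate 3 was.

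Eda2r encodes XEDAR, a receptor of the TNF receptor family for the ectodysplasin form EDA-A2 (chrX:97333840-97377216, ENSMUSG00000034457). Isotype libraries gave 13.2, 15.4 and 27.5 CPM, and DTA-1 libraries 28.4, 31.2 and 21.4 CPM. As with Ccng1, isotype replicate 3 was far above the other isotype libraries, and here it lay within the DTA-1 range. Eda2r had a log2 fold change of 0.53 ± 0.31 (SE, edgeR adjusted p = 0.459). Without isotype replicate 3 it was 0.94 ± 0.24 in edgeR (adjusted p = 0.224) and 0.96 ± 0.30 in DESeq2 (adjusted p = 0.0298, in the refit where 6.1% of all genes passed). Without isotype replicate 1 it was 0.34 ± 0.31 in edgeR. With the muscle score as covariate in edgeR it was -0.26 ± 0.28.

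Sesn2 encodes sestrin 2, a leucine sensor that restrains the growth kinase complex mTORC1 and is also induced by amino acid and oxidative stress (chr4:132492032-132510501, ENSMUSG00000028893). Isotype libraries gave 23.3, 19.2 and 20.8 CPM, and DTA-1 libraries 14.9, 10.5 and 8.51 CPM. The isotype libraries were tightly grouped, and all DTA-1 libraries were under them, DTA-1 replicate 1 least so. The means were 21.1 ± 2.08 CPM with isotype and 11.3 ± 3.28 with DTA-1 (SD, n = 3 each). The log2 fold change was -0.90 ± 0.25 (SE), with an edgeR p of 0.00819 and an adjusted p of 0.39, so it did not pass. DESeq2 gave an adjusted p of 0.0996.

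Among the fits lacking 1 library, Sesn2 passed only in those without DTA-1 replicate 1. The other such fits gave adjusted p of 0.234 to 0.859 in edgeR and 0.103 to 0.623 in DESeq2. In edgeR the log2 fold change without DTA-1 replicate 3 was -0.73 ± 0.25. Without DTA-1 replicate 1 the log2 fold change was -1.15 ± 0.20 (SE) and Sesn2 passed in edgeR (adjusted p = 0.0459), as did 3.69% of all genes, and in DESeq2 (adjusted p = 0.000146), as did 16% of all genes. DTA-1 replicate 1 was also the DTA-1 library with the most squamous transcripts, 3.41% of counts against 0.96% and 1.24% in the other two, and 4.46%, 5.64% and 4.57% in the isotype libraries. All 12 basal and all 16 differentiated squamous markers had negative fold changes, 10 of the 28 reaching an unadjusted p under 0.05, where 7.52% of all genes did on the lower side. With the squamous score as covariate in edgeR, the Sesn2 fold change was -0.45 ± 0.28, and with the muscle score it was -0.85 ± 0.41.

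Phlda3 encodes a small pleckstrin homology protein that competes with the kinase Akt for membrane lipids and so dampens survival signaling (chr1:135766119-135769136, ENSMUSG00000041801). Isotype libraries gave 305.1, 224 and 239.5 CPM, and DTA-1 libraries 298, 333 and 366 CPM. The groups overlapped only through isotype replicate 1 and DTA-1 replicate 1. The log2 fold change was 0.38 ± 0.20 (SE, edgeR adjusted p = 0.428), and over the edgeR fits lacking 1 library it ranged from 0.30 to 0.53. It was 0.50 ± 0.29 with the muscle score and 0.28 ± 0.30 with the squamous score as covariate.

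**Figure D3:**
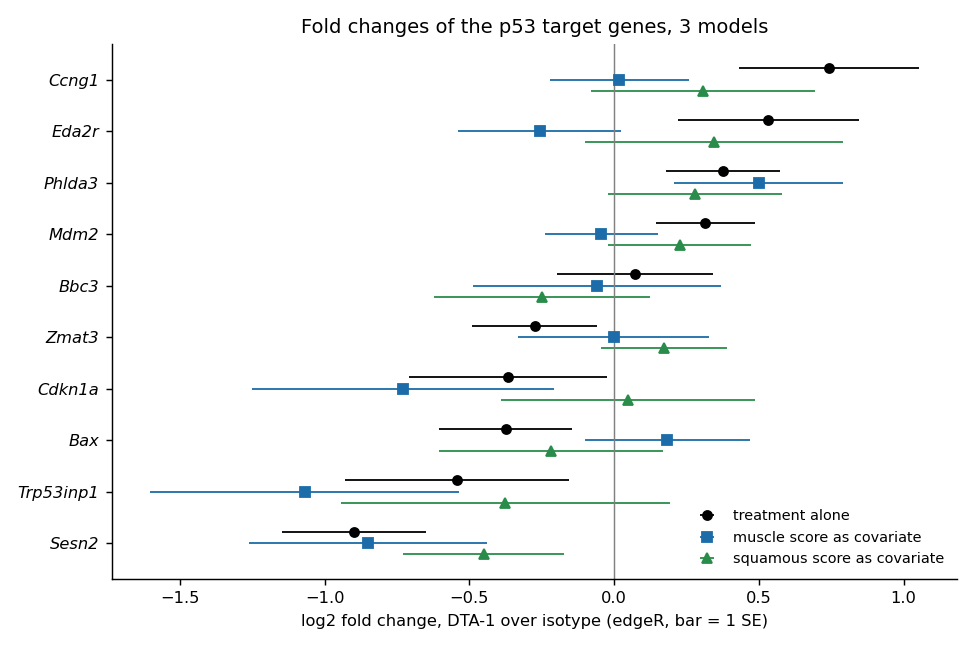
Log2 fold changes of DTA-1 over isotype for the 10 p53 targets from edgeR with treatment alone, with the striated muscle score and with the squamous score as covariate; bars are 1 SE. Ccng1 stands at 0.74 with treatment alone, 0.018 with the muscle score and 0.31 with the squamous score. Sesn2 stands at -0.85 with the muscle score and -0.45 with the squamous score.

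With a tissue score in the fit, 4 of the 10 p53 targets changed sign under the muscle score (Mdm2, Bax, Bbc3 and Eda2r) and 3 under the squamous score (Cdkn1a, Bbc3 and Zmat3). Each such model leaves 3 residual degrees of freedom. The muscle score of every DTA-1 library (10.99 to 11.58) was above that of every isotype library (10.04 to 10.92), so muscle share and antibody cannot be told apart in these libraries. The squamous share was below the isotype range (4.46% to 5.64% of counts) in every DTA-1 library (0.96% to 3.41%). That share and antibody cannot be told apart either. The squamous score overlapped between the groups only through isotype replicate 3 (8.09) and DTA-1 replicate 1 (8.20). Under library totals alone the median fold change of all genes shifted from -0.031 to -0.19 and that of the 10 targets from -0.10 to -0.26.

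Among p53 and its regulators, no gene passed the test. Of 15 genes, all tested, 10 had negative and 5 positive fold changes, with a median of -0.12. Trp53 itself, which encodes p53, stood at 41.8, 42.4 and 28.1 CPM with isotype and 34.9, 24.0 and 22.7 CPM with DTA-1. Isotype replicate 3 lay within the DTA-1 range, and the log2 fold change was -0.46 ± 0.24 (SE, edgeR adjusted p = 0.428). p53 is known to be regulated mainly through the stability of its protein, which was not measured here.

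Both p53 relatives had negative fold changes. Trp63, which encodes the basal squamous factor p63 and also belongs to the basal squamous markers, stood at 244, 223 and 213 CPM with isotype and 207, 109 and 61.3 CPM with DTA-1. DTA-1 replicate 1 was just under the isotype range and the other DTA-1 libraries far under it, for a log2 fold change of -0.85 ± 0.41 (SE, edgeR adjusted p = 0.409). Trp73 stood at 12.2, 9.32 and 4.58 against 5.18, 4.38 and 2.74 CPM, with overlapping groups and a log2 fold change of -1.08 ± 0.43 (edgeR adjusted p = 0.39). Cdkn2a, whose locus encodes both the CDK inhibitor p16 and the Mdm2 inhibitor ARF, stood at 37.5, 7.28 and 5.34 against 4.61, 6.22 and 2.57 CPM. Isotype replicate 1 alone was high, the log2 fold change was -1.90 ± 0.78 (edgeR adjusted p = 0.391), and gene counts cannot separate the 2 products. The p53 inhibitor Mdm4 and the damage kinases Atm and Chek2 had log2 fold changes of -0.12 ± 0.14, -0.055 ± 0.26 and -0.61 ± 0.46. On the higher side Prkdc, Trp53bp1 and Ep300, genes of DNA break repair and p53 co-activation, had log2 fold changes of 0.24 ± 0.20, 0.16 ± 0.16 and 0.086 ± 0.22.

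No other p53 target passed the test. Of 40 such genes 39 were tested (Rprm was too scarce), 27 had negative and 12 positive fold changes, and the median was -0.22. Before adjustment, 6 lower and 2 higher genes of the 39 had an edgeR p under 0.05, where 7.52% and 5.21% of all genes did. The groups did not overlap for 6 genes below and 3 above, against 9.38% and 8.6% of all genes. On the lower side, Plk2, a stress-induced polo-like kinase, stood at 65.2, 46.3 and 44.8 CPM with isotype and 38.4, 16.7 and 20.8 CPM with DTA-1. The receptor gene Notch1, which promotes squamous differentiation, stood at 42.6, 62.9 and 59.7 against 41.2, 24.7 and 23.1 CPM. Dcxr, a carbonyl reductase gene, stood at 23.8, 20.8 and 17.4 against 12.0, 14.1 and 13.8 CPM. Their log2 fold changes were -1.04 ± 0.34, -0.89 ± 0.27 and -0.63 ± 0.19 (SE), each with an edgeR adjusted p of 0.39. None of the 3 overlapped between the groups, as a choice by smallest p makes likely.

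On the higher side of those other targets, Tigar, which diverts glycolysis toward NADPH production, stood at 31.3, 39.3 and 39.3 CPM with isotype and 40.0, 58.4 and 60.9 CPM with DTA-1. Trim7, a ubiquitin ligase gene, stood at 27.2, 27.4 and 37.4 against 42.1, 59.1 and 41.8 CPM, and Tob1, an antiproliferative gene, at 72.3, 94.0 and 89.0 against 95.0, 126.5 and 100.5 CPM. Their log2 fold changes were 0.54 ± 0.21, 0.64 ± 0.21 and 0.33 ± 0.18 (SE), with edgeR adjusted p of 0.39, 0.39 and 0.43. The most abundant gene of the list, Perp, a desmosome-associated p53 and p63 target named here after its values were seen, split the DTA-1 group. It stood at 2002, 2080 and 1985 CPM with isotype and 2241, 458 and 618 CPM with DTA-1. The squamous share of counts was likewise higher in DTA-1 replicate 1 than in the other DTA-1 libraries, and its part in the Perp values was not tested.

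p21 acts on the cell cycle by keeping the DREAM repressor complex on proliferation genes. All 20 genes of that list were tested and all 20 had negative fold changes with DTA-1, where 52.9% of all genes did. Their median was -0.64, but edgeR counted 0 at an adjusted p under 0.05. At an unadjusted p under 0.05 it also counted 0, where 7.52% of all genes were lower and 5.21% higher. The groups overlapped for all 20, where 9.38% of all genes lay below and 8.6% above without overlap. Summed over the list, levels were 333, 265 and 194 CPM with isotype and 326, 99.3 and 86.3 CPM with DTA-1, and the first DTA-1 library was inside the isotype range. In 16 of the 20 genes DTA-1 replicates 2 and 3 were the lowest libraries, as they were for Cdkn1a (153 and 110 CPM). The share of all genes with that library order was not counted, so the order cannot be called particular to this list. The other 4 genes were named after their values were seen (Mcm6, E2f1, Ccne2 and Chek1). In these, isotype replicate 3 was below at least 1 of DTA-1 replicates 2 and 3. DTA-1 replicates 2 and 3 also had the lowest squamous share, 0.96% and 1.24% of counts against 3.41% in DTA-1 replicate 1, and its part in these values was not tested. The members with the smallest p, Mcm6, Ccna2 and E2f1, genes of DNA replication and S phase entry, had log2 fold changes of -0.60 ± 0.43, -0.82 ± 0.59 and -0.87 ± 0.69 (SE).

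Around Bax and Bbc3, 11 of 13 further BCL-2 family genes were tested, with 7 negative and 4 positive fold changes and a median of -0.043. Bid, a BH3-only gene that links death receptors to Bax, stood at 7.45, 7.32 and 6.53 CPM with isotype and 3.57, 4.85 and 3.08 CPM with DTA-1. The pro-survival gene Bcl2l2 had the opposite sign, at 64.8, 62.2 and 70.1 against 74.7, 82.6 and 87.5 CPM. Neither pair of groups overlapped, as a choice by smallest p makes likely. They were the only such genes of the 11, 1 below and 1 above, where 9.38% and 8.6% of all genes did not overlap. The log2 fold changes were -0.89 ± 0.28 for Bid and 0.31 ± 0.14 for Bcl2l2 (SE), with edgeR adjusted p of 0.39 and 0.397. The death effectors Bak1 and Bok had log2 fold changes of -0.32 ± 0.22 and -0.44 ± 0.31, and the BH3-only Bmf and the pro-survival Mcl1 had 0.42 ± 0.27 and 0.28 ± 0.22. None passed.

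Of the 6 CDK inhibitors beside Cdkn1a, 3 had positive and 3 negative fold changes, none past the threshold. Cdkn1c, which encodes p57, stood at 6.60, 10.2 and 30.5 CPM with isotype and 51.9, 54.3 and 18.3 CPM with DTA-1, with overlapping groups and a log2 fold change of 1.39 ± 0.64 (SE, edgeR adjusted p = 0.403). Cdkn2b, which encodes p15 next to Cdkn2a, stood at 28.4, 10.8 and 8.44 against 5.65, 5.56 and 4.83 CPM, with no overlap and a log2 fold change of -1.57 ± 0.47 (edgeR adjusted p = 0.39). Like Cdkn2a, it was highest in isotype replicate 1. A choice by smallest p makes a lack of overlap likely, and 9.38% of all genes lay below without overlap. Cdkn2d, Cdkn1b and Cdkn2c had log2 fold changes of 0.32 ± 0.23, 0.011 ± 0.16 and -0.12 ± 0.25.

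Close relatives of the 10 targets, and the ectodysplasin genes beside Eda2r, did not pass either. Of 15 genes 14 were tested, with 9 positive and 5 negative fold changes and a median of 0.093. Of the other sestrin genes, named here after their values were seen, Sesn1 had a log2 fold change of -0.16 ± 0.41 and Sesn3 of 0.22 ± 0.17 (SE), both with overlapping groups, and their difference from Sesn2 was not tested. Phlda2, a relative of Phlda3, stood at 5.49, 3.21 and 3.28 CPM with isotype and 2.35, 0.848 and 1.11 CPM with DTA-1. Its log2 fold change was -1.47 ± 0.48 (edgeR adjusted p = 0.39), opposite in sign to that of Phlda3. Phlda1 and the receptor gene Edar had -0.45 ± 0.26 and -0.56 ± 0.51, and Zmat5, Trp53inp2 and the ligand gene Eda had 0.47 ± 0.22, 0.45 ± 0.28 and 0.45 ± 0.32.

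**Figure D4:**
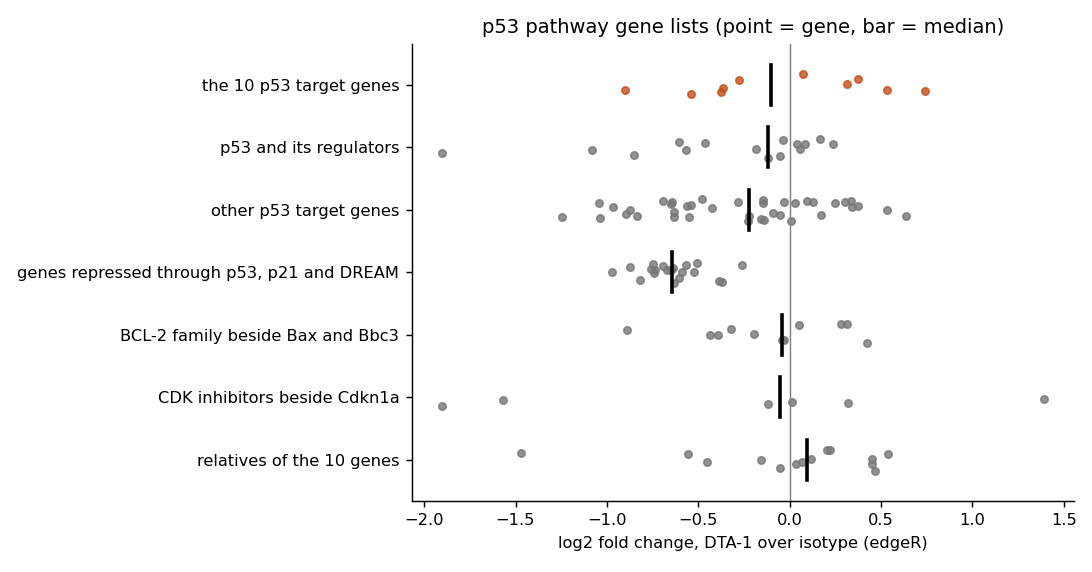
Log2 fold changes of DTA-1 over isotype for every tested gene of the 10 p53 targets and of 6 related lists; each point is a gene and the black bar is the list's median. The 10 targets lie on both sides of 0, with a median of -0.10, while all 20 genes repressed through p53, p21 and DREAM lie below 0.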

How the data were processed

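The deposited files hold unnormalized whole-number read counts per Ensembl gene. The submitters' processing notes name the tools cutadapt 1.13, STAR, HTSeq 0.6.1p1 and DESeq2 1.14.1 beside the mouse build mm10. What each did, and whether strand was used in counting, is not given in these sources, so overlapping or antisense genes cannot be told apart. Symbols, positions and exon lengths came from GENCODE M21 on GRCm38 (mm10).

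Low counts were removed with filterByExpr (minimum count 10, total 15). The main test was the quasi-likelihood F-test of edgeR 4.0.16 (R 4.3.3, robust, two-sided) on TMM-scaled counts of 15763 genes, with treatment as the only term and Benjamini-Hochberg adjustment. CPM values use the TMM-scaled library sizes, and list scores average log2 CPM (prior count 2). Alternatives were DESeq2 1.42.0, limma-voom (limma 3.58.1), 3 scalings, 2 filters, removal of muscle markers, 2 tissue covariates, a replicate block and leaving out each library. DESeq2's leave-one-out refits and an edgeR fit lacking 2 libraries that stand apart were added after seeing the data.

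The 251 listed symbols, the 10 targets included, were all matched and were chosen with earlier results of these data known. Named genes were the 10 targets, Trp53, Trp63, Trp73, Mdm4, Cdkn2a, Atm and Chek2, and from each other pathway list up to 3 tested genes per direction, by smallest p.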

Additional observations from a re-analysis of the deposited data

How the results depend on the processing

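Each of the 10 p53 targets was refitted under 24 alternatives. Of these 240 fold changes, 223 kept their direction and their side of the threshold, 4 came to pass it and 13 changed sign. The cause was not tested. With library totals alone Bbc3 was -0.079. With the muscle score as covariate Mdm2 was -0.044, Bax 0.18, Bbc3 -0.059 and Eda2r -0.26, and with the squamous score Cdkn1a was 0.048, Bbc3 -0.25 and Zmat3 0.17. Over the edgeR fits lacking 1 library, Bbc3 ranged from -0.047 to 0.19 and Trp53inp1 from -0.83 to -0.10. In DESeq2, Bbc3 was -0.026 when isotype replicate 2 was left out and -0.028 when DTA-1 replicate 3 was. Leaving out isotype replicate 3 and DTA-1 replicate 2 together put Trp53inp1 at 0.031. No gene of the 10 passed in DESeq2 or limma-voom on all libraries, and DESeq2 called 180 genes in all. Leave-one-out fits of edgeR called 0 to 601 genes and 0 to 1 p53 targets, the highest in each case lacking DTA-1 replicate 1. DESeq2 called 180, 56 and 896 genes lacking isotype replicates 1, 2 and 3, and 2449, 41 and 41 lacking DTA-1 replicates 1, 2 and 3, with 0 to 2 p53 targets among them (2 lacking isotype replicate 3, 1 lacking DTA-1 replicate 1). The median of the 10 stayed between -0.26 with library totals alone and 0.11 with the squamous score. With the replicate block edgeR called 0 genes, the median of the 10 was -0.12 and the smallest adjusted p among them 0.475. The shared numbers gave no sign of pairing: deviations from the group means correlated at 0.017, -0.333 and -0.086 in same-numbered libraries. Libraries with different numbers correlated at -0.179 to 0.364. With 3 libraries in a group these deviations constrain each other, so the check cannot exclude pairing. In the promoter search, at most 2 letters off gave 2 genes with a match and at most 3 gave 4. Depth limits Bbc3 most, at 109 to 167 reads per library.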

Other observations

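The ratio of Ccng1 to Cdkn1a was computed because both genes carry a match of 19 of 20 letters to the p53 consensus in a promoter window. In replicate order, the CPM ratio was 3.29, 2.62 and 3.37 with isotype and 3.90, 9.34 and 9.74 with DTA-1. DTA-1 replicate 1 was close to the isotype libraries and DTA-1 replicates 2 and 3 stood apart. The ratio was chosen after its parts were seen, and no test was run on it. The libraries with the high ratio were also those with the lowest squamous share (0.96% and 1.24% of counts) and the highest muscle share (16.5% and 13.3%), whose part in it was not tested.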
